A study of Mus musculus with 6 samples.

Results

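The TNF superfamily is a group of cytokines that signal by cell contact or after release from the membrane, and 10 of its genes were followed here in sorted cells labelled as osteoblast-lineage (OB-lineage) that do or do not carry the APPswe transgene. The 10 genes were chosen by symbol from the 17469 genes of the count table. They are 5 ligands (Tnf, Tnfsf9, Tnfsf12, Tnfsf13b and Tnfsf14), 4 receptors (Tnfrsf1a, Tnfrsf1b, Fas and Tnfrsf9) and the adaptor Traf1. All 10 were among the 12701 genes that carried enough counts to be tested. RNA-seq was done on tdTomato+ cells that were sorted from cultures of BMSCs (bone marrow stromal cells) of 6-month-old mice, with 3 libraries of each genotype. Control mice were Ocn-Cre;Ai9, in which Cre recombinase under the osteocalcin promoter switches on the tdTomato reporter Ai9. The other mice were TgAPPswe;Ocn-Cre;Ai9, called TgAPPsweOCN here, in which the same Cre also releases human amyloid precursor protein with the Swedish mutation from a stop cassette. Both genotypes thus carried Ocn-Cre and Ai9, neither was treated, and how mice map to libraries was not stated in the sources used here, although 3 mice are named for the plots of these cells. Where libraries of 1 genotype do not come from separate mice, their spread is technical, and the p-values then measure only that spread.

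Ligands of this family are mostly made as trimers on the cell surface, and several, Tnf among them, are cut free by a membrane protease. They bind receptors of a matching family, some of which carry a death domain that can start apoptosis (Tnfrsf1a, Fas) while others recruit TRAF adaptors and turn on NF-kappaB (Tnfrsf1b, Tnfrsf9). In bone and marrow these cytokines are known to act on osteoblasts, osteoclast precursors and immune cells, and Tnf from myeloid cells is a well-known stimulus of bone resorption.

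Promoter sequence is shown for 4 members that were called and held a match to a searched motif, 3 that rose (Tnf, Tnfrsf9 and Fas) and 1 that fell (Tnfsf14). The promoter table used, from RefSeq (GRCm38.p6), held 10 start sites for 8 of the 10 members. Tnfsf9 and Tnfsf12 were not in that table. The 250 bases before each start were searched on both strands for an AP-1 site (TGANTCA), for the kappaB consensus and for a box with the letters TATAAA, a choice made after the values were seen. Capitals mark the matches, and no match of one motif overlapped that of another. The runs lay at chr17:35202008-35202257 (minus strand) for Tnf, at chr19:34290409-34290658 (plus strand) for Fas, and at chr17:57194182-57194431 (minus strand) for Tnfsf14. None of these 3 overlapped an exon of its own gene in GENCODE. For Tnfrsf9 only 30 bases are shown, chr4:150927946-150927975 (plus strand), around 2 kappaB matches that overlap each other, because 81 of the 250 bases before this second start are exonic in another transcript.
Tnf: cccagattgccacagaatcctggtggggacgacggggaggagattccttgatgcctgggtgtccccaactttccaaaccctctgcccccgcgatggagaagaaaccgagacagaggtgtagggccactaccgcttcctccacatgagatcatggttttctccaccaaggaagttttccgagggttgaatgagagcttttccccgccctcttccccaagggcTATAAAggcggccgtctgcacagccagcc
Tnfrsf9: cagagcagctGGGGATTTCCCaggaggccc
Fas: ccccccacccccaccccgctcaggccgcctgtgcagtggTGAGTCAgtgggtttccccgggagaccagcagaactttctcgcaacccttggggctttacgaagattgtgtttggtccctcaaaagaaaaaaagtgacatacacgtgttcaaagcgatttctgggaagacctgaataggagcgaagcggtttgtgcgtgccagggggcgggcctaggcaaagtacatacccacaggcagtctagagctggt
Tnfsf14: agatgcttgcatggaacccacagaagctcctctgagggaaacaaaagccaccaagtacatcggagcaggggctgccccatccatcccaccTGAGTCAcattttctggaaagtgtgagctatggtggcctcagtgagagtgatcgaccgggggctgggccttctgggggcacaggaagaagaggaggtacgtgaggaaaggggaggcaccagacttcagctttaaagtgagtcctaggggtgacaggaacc
The TATAAA box of Tnf began 29 bases before the start. The AP-1 match began 211 bases before the start of Fas, a gene that rose, and 160 bases before that of Tnfsf14, a gene that fell. A further AP-1 match began 15 bases before the second start of Tnfrsf9, and the fourth belonged to a start of Tnfsf13b. The only kappaB matches in the 10 windows were those of Tnfrsf9. Tnfrsf1b and Traf1, which also rose, Tnfrsf1a, and the other starts of Tnfrsf9 and Tnfsf13b held no match to any of the motifs. Over all 32851 promoters of the table, 12.4% held a TATAAA match, 6.75% an AP-1 match and 7.25% a kappaB match in the same 250 bases. A match describes letters and is not evidence of binding.

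Libraries summed to 19340810 to 19801060 estimated counts in the controls and to 21677461 to 22037840 in TgAPPsweOCN, so that 3 counts, taken as the floor of detection for counting error only, were worth 0.141 to 0.143 TMM-normalized CPM (counts scaled to the library total after the trimmed mean of M values correction) in control and 0.145 to 0.150 in TgAPPsweOCN. App was listed under a single entry in which mouse and human transcripts cannot be told apart, at 279 ± 3.50 FPKM in control and 330 ± 4.18 FPKM in TgAPPsweOCN (mean ± SD, n = 3). The label of the cells was set beside marker genes. All 15 of 15 myeloid markers were above 0 in every library, and their FPKM summed to 19855 to 20626 in control and 16465 to 20202 in TgAPPsweOCN. The 15 stromal and osteoblast markers summed to 159 to 177 and 129 to 210. Bglap, which encodes osteocalcin, lay between 0.350 and 1.25 FPKM in control and between 0 and 0.490 in TgAPPsweOCN, under the filter for testing. Lyz2 alone held 5379 to 9263 FPKM of the myeloid sum. The bone collagen genes Col1a1 and Col1a2 were present in every library, at 26.9 to 45.7 and 34.1 to 56.5 FPKM. Both genotypes thus carried more myeloid than osteoblast marker RNA, which is not what the OB-lineage label alone would give. In bulk RNA, more cells of a type and more RNA per cell cannot be told apart.

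Of the 10 genes, 5 rose and 2 fell in TgAPPsweOCN. A call needed a log2 fold change of 1 or more up or down, together with a p of 0.05 or less after Benjamini-Hochberg adjustment in edgeR's quasi-likelihood test. Over all tested genes 8.90% were called up and 9.20% were called down by this rule, as 1130 and 1169 genes. With scaling by library size only the split was 846 up and 1732 down, and in limma on log2(FPKM + 0.1) it was 811 and 1510. Tnf, Tnfrsf1b, Tnfrsf9, Fas and Traf1 rose, and Tnfsf12 and Tnfsf14 fell. Tnfsf9, Tnfsf13b and Tnfrsf1a were not called. Tnfrsf9 was kept by the filter only through TgAPPsweOCN and Tnfsf14 had 8 counts in its lowest library, and with at least 10 counts required of each library 4 members were called up and 1 down. By adjusted p alone the counts were again 5 higher and 2 lower, where 32.5% of all tested genes were higher and 31.5% lower. Libraries of the genotypes did not overlap for 6 of the genes in the higher and 3 in the lower direction on TMM-normalized CPM, beside 34.8% and 34.9% of all tested genes. The median log2 fold change of the 10 genes was 0.99, against -0.02 over all tested genes.

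**Figure D1:**
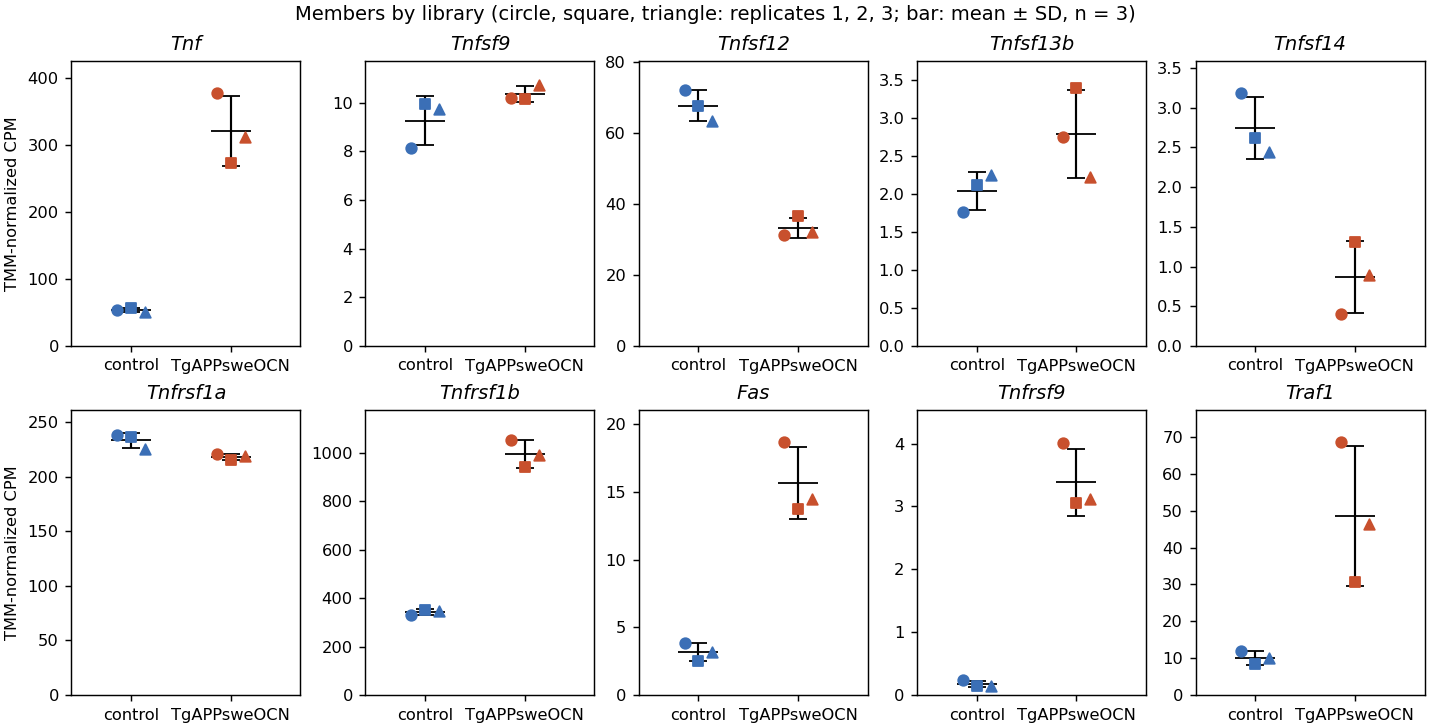
TMM-normalized CPM of each of the 10 genes in the 3 control and 3 TgAPPsweOCN libraries, with ligands in the top row, receptors and Traf1 in the bottom row, symbols for replicates 1, 2 and 3, and bars for the mean ± SD. The 3 TgAPPsweOCN libraries sat above all control libraries for Tnf, Tnfrsf1b, Fas, Tnfrsf9 and Traf1, and for Tnfsf9, which was not called. They sat below all control libraries for Tnfsf12 and Tnfsf14, and for Tnfrsf1a, which was not called. Of all tested genes, 34.8% were apart in this way in the higher and 34.9% in the lower direction.

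Among the ligands, Tnf, the founding cytokine of the family and a driver of inflammation and bone resorption, rose about 6.01 times. Its TMM-normalized CPM was 53.5, 56.0 and 50.4 in control replicates 1, 2 and 3, and 377, 273 and 311 in TgAPPsweOCN replicates 1, 2 and 3. The genotypes were far apart, and the spread within TgAPPsweOCN (SD 52.6) was wider than within control (SD 2.78). The log2 fold change was 2.59 ± 0.116 (SE, adjusted p = 4.55e-07 in edgeR). Leaving out any 1 library kept it between 2.46 and 2.70. Tnf (Entrez 21926) lies on chr17:35199367-35202007 of GRCm38.p6, 1157 bases from Lta and 3061 bases from Ltb.

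Tnfsf12 encodes TWEAK, a ligand that acts through the receptor Tnfrsf12a. Its CPM was 72.2, 67.5 and 63.3 in control and 31.3, 36.5 and 32.1 in TgAPPsweOCN, so that every TgAPPsweOCN library was below every control library. The log2 fold change was -1.02 ± 0.0799 (SE, edgeR adjusted p = 9.54e-06), just past the fold threshold. It was -0.98 without control replicate 1, -0.97 without TgAPPsweOCN replicate 1 and -0.99 without TgAPPsweOCN replicate 3, each short of that threshold with an adjusted p of at most 0.000174. Tnfsf12 was the 1 member with fractional counts, meaning reads shared with another entry. It lies on chr11:69686240-69696098, 685 bases from Tnfsf13, and a joint Tnfsf12-Tnfsf13 transcript is listed as Tnfsfm13. The joint transcript was at 4.80 ± 0.788 FPKM in control and 2.36 ± 0.214 FPKM in TgAPPsweOCN, and the counts of all 3 entries summed had a log2 fold change of -1.31 (edgeR adjusted p = 1.38e-06), in a check added after the data were seen.

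Tnfsf14 encodes LIGHT, which binds Tnfrsf14 and Ltbr. It was scarce, with 67, 56 and 51 counts in control and 8, 27 and 18 in TgAPPsweOCN. All TgAPPsweOCN libraries were lower, and TgAPPsweOCN replicate 1 was the lowest of them. The log2 fold change on CPM was -1.66 ± 0.354 (SE, 95% interval -2.47 to -0.84, edgeR adjusted p = 0.00326). On log2(FPKM + 1), which compresses low genes, it was -0.88 in limma (adjusted p = 0.000554) and no longer past the fold threshold.

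Tnfsf9, the ligand of Tnfrsf9, did not pass the test. Its CPM was 8.13, 9.94 and 9.75 in control and 10.2, 10.2 and 10.7 in TgAPPsweOCN, a log2 fold change of 0.16 with a 95% interval of -0.09 to 0.41 (edgeR adjusted p = 0.234). The sign depended on scaling, being -0.05 with scaling by library size only and -0.13 to -0.14 on log2 FPKM in limma, and FPKM values of the genotypes overlapped. Tnfsf13b encodes BAFF, the survival factor of B cells. It had 37 to 47 counts in control and 45 to 70 in TgAPPsweOCN, with overlapping libraries and a log2 fold change of 0.45 ± 0.219 (SE, 95% interval -0.05 to 0.95, edgeR adjusted p = 0.102).

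The receptors of Tnf went apart. Tnfrsf1b, the receptor that lacks a death domain and is typical of immune cells, rose 2.90 times, from CPM of 329, 352 and 348 in control to 1054, 940 and 992 in TgAPPsweOCN. Its log2 fold change was 1.54 ± 0.0637 (SE, edgeR adjusted p = 3.12e-07), and the lowest TgAPPsweOCN library was well above the highest control. Tnfrsf1a, the widely expressed receptor with a death domain, had CPM of 238, 236 and 225 in control and 220, 215 and 219 in TgAPPsweOCN. All TgAPPsweOCN libraries were a little lower, and the log2 fold change of -0.09 ± 0.0512 (SE, 95% interval -0.21 to 0.02) did not pass the test (edgeR adjusted p = 0.136). With scaling by library size only, the value was -0.31 (adjusted p = 0.000609), while the median of all tested genes moved to -0.23. In limma on log2 FPKM it was -0.31 under all 3 settings, with adjusted p from 0.000388 to 0.000557, so that under these 4 alternatives 3 members were lower by adjusted p.

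The ratio of Tnfrsf1b to Tnfrsf1a within a library does not depend on library scaling. In FPKM, which also divides by gene length, the ratio was 0.594, 0.642 and 0.666 in control and 2.06, 1.88 and 1.95 in TgAPPsweOCN. Tnfrsf1a was thus the more abundant of the pair in every control library, and Tnfrsf1b in every TgAPPsweOCN library. The log2 ratio differed by 1.63 (two-sided exact permutation p = 0.1, which 3 against 3 libraries cannot go below).

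Fas, the death receptor for Fasl, rose from CPM of 3.85, 2.48 and 3.15 in control to 18.7, 13.7 and 14.5 in TgAPPsweOCN. No library overlapped with the other genotype, and the log2 fold change was 2.30 ± 0.185 (SE, edgeR adjusted p = 1.10e-05). Its ligand Fasl had 0 counts in 5 libraries and 1 count in TgAPPsweOCN replicate 3, under the floor throughout.

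Tnfrsf9, also known as CD137 and best known as a co-stimulatory receptor of T cells, was close to the floor in control. It had 5, 3 and 3 counts in control and 80, 63 and 63 in TgAPPsweOCN, and every TgAPPsweOCN library was above every control library. The summed counts, 11 against 206, gave a ratio of 19.5 after scaling by the TMM-corrected library totals (exact 95% interval 10.7 to 39.6, counting error only). The fitted log2 fold change was 4.24 ± 0.302 (SE, edgeR adjusted p = 5.62e-06), a value that depends on the prior count at such low levels, and the gene was kept by the filter only through its TgAPPsweOCN counts. T and NK cell markers were scarce. Of 10 such markers 8 were in the table, and of 3 tested 1 was called up (Cd5, kept by the filter only through TgAPPsweOCN) and 1 down (Cd4), beside 8.90% and 9.20% of all tested genes. Their FPKM summed to 4.05 to 4.68 in control and 1.55 to 2.80 in TgAPPsweOCN, and Cd3e and Cd3d were at or below 0.0800 FPKM in every library.

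Traf1, the adaptor that binds Tnfrsf1b, Tnfrsf9 and other TRAF-recruiting receptors, rose from CPM of 11.9, 8.30 and 9.99 in control to 68.6, 30.8 and 46.5 in TgAPPsweOCN. The TgAPPsweOCN libraries differed from each other by up to 2.23 times, the widest spread among the 5 genes that rose, and all lay above the controls. The log2 fold change was 2.27 ± 0.277 (SE, edgeR adjusted p = 0.000131).

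On TMM-normalized CPM, the TgAPPsweOCN libraries had a common order in several members. Replicate 1 was highest and replicate 2 lowest for Tnf, Tnfrsf1b, Fas, Tnfrsf9 (63 counts each in replicates 2 and 3) and Traf1. Tnfrsf1a, which was not called, had the same order, with its highest library 1.03 times its lowest. In contrast, replicate 2 was highest and replicate 1 lowest for Tnfsf12 and Tnfsf14, the genes that fell. The summed FPKM of the myeloid markers was 20202, 16465 and 17670 in TgAPPsweOCN replicates 1, 2 and 3, of which Lyz2 alone held 8724, 5379 and 6830. The median of the same markers ran the other way, at 491, 530 and 508 FPKM. The summed FPKM of the stromal markers was 129, 210 and 173. The part of cell composition in these values was not tested. Between the genotypes, 4 of 15 myeloid markers were called up (Itgam, Adgre1, Aif1 and Fcer1g) and 4 down (Cd68, Csf1r, Mrc1 and Fcgr3), beside 8.90% and 9.20% of all tested genes, and their summed ranges overlapped. The median over the 15 markers was lower in every TgAPPsweOCN library, at 491 to 530 FPKM against 547 to 573 in control. The 8 neutrophil markers summed to 12.3 to 51.5 FPKM in control and 18.1 to 49.4 in TgAPPsweOCN. Of 6 neutrophil markers tested only Camp was called, in the up direction, beside 8.90% of all tested genes called up and 9.20% down. Camp had 9, 1 and 4 counts in control and 21, 54 and 37 in TgAPPsweOCN (edgeR adjusted p = 0.00175). It was kept by the filter only through TgAPPsweOCN. Of 14 stromal markers tested, Dcn and Lum were called up and none down, beside 8.90% and 9.20% of all tested genes. Lum, with 1 count over the control libraries, was kept by the filter only through TgAPPsweOCN.

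Compared per gene length, the order of the members changed between the genotypes. In control, mean FPKM was 120 for Tnfrsf1a, 76.2 for Tnfrsf1b, 44.8 for Tnfsf12, 36.2 for Tnf, 9.38 for Tnfsf9, 4.05 for Traf1, 2.51 for Fas, 1.64 for Tnfsf14, 1.34 for Tnfsf13b and 0.0967 for Tnfrsf9. The ranges of neighbours in this order were apart except for Tnfsf14 and Tnfsf13b. In TgAPPsweOCN, Tnfrsf1b at 190 and Tnf at 187 led with overlapping ranges, followed by Tnfrsf1a at 97.0. Tnfsf12 at 19.0, Traf1 at 18.9 and Fas at 10.6 came next, where Tnfsf12 overlapped Traf1 and Traf1 overlapped Fas. Tnfsf9 followed at 8.43, then Tnfrsf9 at 1.59 and Tnfsf13b at 1.56, which overlapped, and last Tnfsf14 at 0.447. Tnf thus moved from below Tnfsf12 to the level of Tnfrsf1b, and Tnfrsf9 from the last place to that of Tnfsf13b.

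**Figure D2:**
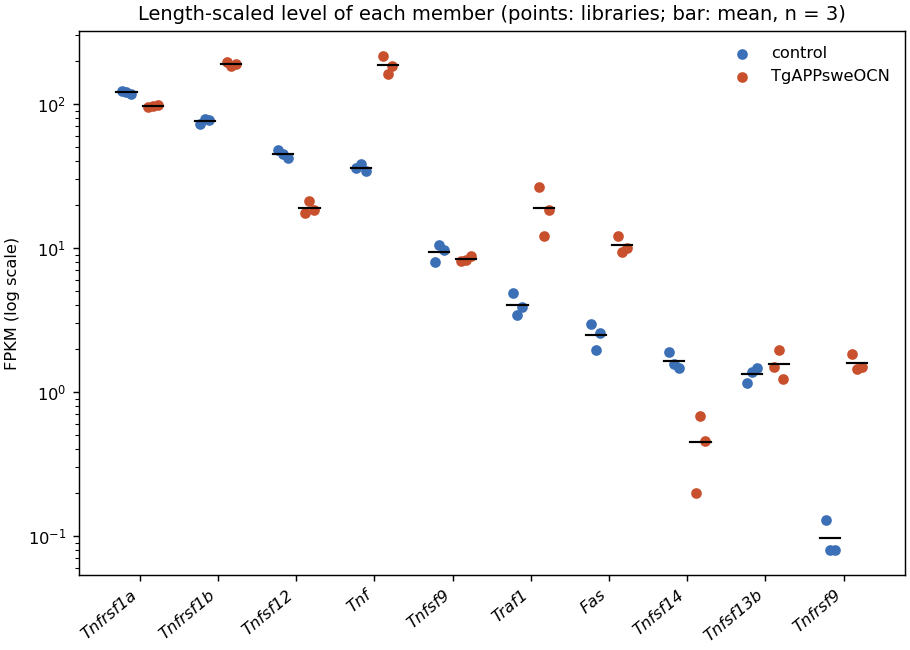
FPKM (log scale) of the 10 genes in each library, ordered by the control mean, with a bar at the mean of the 3 libraries of each genotype. Tnf went from a mean of 36.2 in control to 187 in TgAPPsweOCN, and Tnfrsf1b from 76.2 to 190, while Tnfrsf1a was at 120 and 97.0.

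Of 13 other ligands of the family 6 were tested, 4 rose, 1 fell and Eda did not pass the test, where 8.90% and 9.20% of all tested genes were called up and down. Ltb and Tnfsf4 were kept by the filter only through their counts in TgAPPsweOCN. With at least 10 counts required of each library 2 rose and 1 fell, and in limma on log2(FPKM + 1) 1 rose and 1 fell. In edgeR without the filter 6 rose and 1 fell. Ltb, which pairs with Lta to engage Ltbr, rose from 15, 6 and 9 counts in control to 186, 236 and 260 in TgAPPsweOCN (log2 fold change 4.54 ± 0.275, edgeR adjusted p = 2.33e-06). Tnfsf4, the OX40 ligand, had 6 counts over the control libraries and 78 over TgAPPsweOCN, a ratio of 13.5 (exact 95% interval 5.94 to 38.0), and passed the test (adjusted p = 6.92e-05). Tnfsf10, which encodes TRAIL, had a log2 fold change of 2.35 (adjusted p = 4.02e-05), and Tnfsf15 one of 1.60 (adjusted p = 9.08e-05). Tnfsf13, which encodes APRIL and borders Tnfsf12, fell from CPM of 29.5, 42.1 and 34.8 to 6.15, 7.93 and 6.27 (log2 fold change -2.38 ± 0.154, edgeR adjusted p = 3.36e-06). Its counts were fractional too.

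Lta, beside Tnf on chromosome 17, was under the filter with 1 count in all control libraries and 19 in TgAPPsweOCN, a ratio of 19.8 with an exact 95% interval of 3.14 to 821 that covers counting error only. Tnf and Ltb rose, and Lta was not tested in edgeR with the filter. Tnfsf9, Cd70 and Tnfsf14 also lie in a row on chromosome 17, with gaps of 38.2 and 39.7 kb, and there Tnfsf9 did not pass the test, Cd70 had 2 counts in all and Tnfsf14 fell. Fasl, Tnfsf8, Tnfsf11 (RANKL) and Tnfsf18 were under the filter, and Cd40lg was not in the table. With the other 5 ligands included, 5 of 11 tested ligands rose, Ltb and Tnfsf4 among them, and 3 fell, beside 8.90% and 9.20% of all tested genes.

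Of 24 other receptors 16 were tested, 3 rose and 1 fell. Cd40, a receptor of antigen-presenting cells, rose from CPM of 8.60, 7.78 and 7.98 in control to 86.4, 54.8 and 70.7 in TgAPPsweOCN, in the same library order as Tnf (log2 fold change 3.12 ± 0.165, edgeR adjusted p = 1.10e-06). Tnfrsf11a (RANK), the receptor through which osteoclast precursors respond to RANKL, had a log2 fold change of 1.31 (adjusted p = 5.96e-06), and Tnfrsf14 one of 1.25 (adjusted p = 5.38e-06). Tnfrsf12a, the receptor of Tnfsf12, fell with it, from CPM of 16.7, 15.5 and 15.5 to 8.65, 6.96 and 7.70 (log2 fold change -1.03 ± 0.104, edgeR adjusted p = 4.28e-05). Without TgAPPsweOCN replicate 2 no other receptor was called down. In edgeR without the filter 4 other receptors rose, and in limma on log2(FPKM + 1) 2 rose. A total of 8 other receptors were under the filter. With the 4 members, 6 of 20 tested receptors rose and 1 fell, beside 8.90% and 9.20% of all tested genes, and Tnfrsf9 was kept by the filter only through its counts in TgAPPsweOCN.

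Known ligand and receptor pairs did not always move together. Tnf and Tnfrsf1b both rose while Tnfrsf1a was not called, and Tnfsf12 and Tnfrsf12a both fell. Tnfsf14 fell while its receptor Tnfrsf14 rose, and its other receptor Ltbr had a log2 fold change of 0.24 that passed the adjusted p alone (edgeR adjusted p = 0.00234). Tnfrsf9 rose and its ligand Tnfsf9 was not called. For Tnfsf13b, the receptor Tnfrsf13b had a log2 fold change of 0.11 (edgeR adjusted p = 0.169), and Tnfrsf13c and Tnfrsf17 had at most 2 counts in any library. Among B cell markers, Cd79b had a mean of 1.18 FPKM in control and 3.44 FPKM in TgAPPsweOCN and was called up (edgeR adjusted p = 0.000127), while Ms4a1, Cd79a and Pax5 averaged at most 0.0367 FPKM in either genotype. The differences between the members of a pair were not tested, apart from the Tnfrsf1b to Tnfrsf1a ratio.

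**Figure D3:**
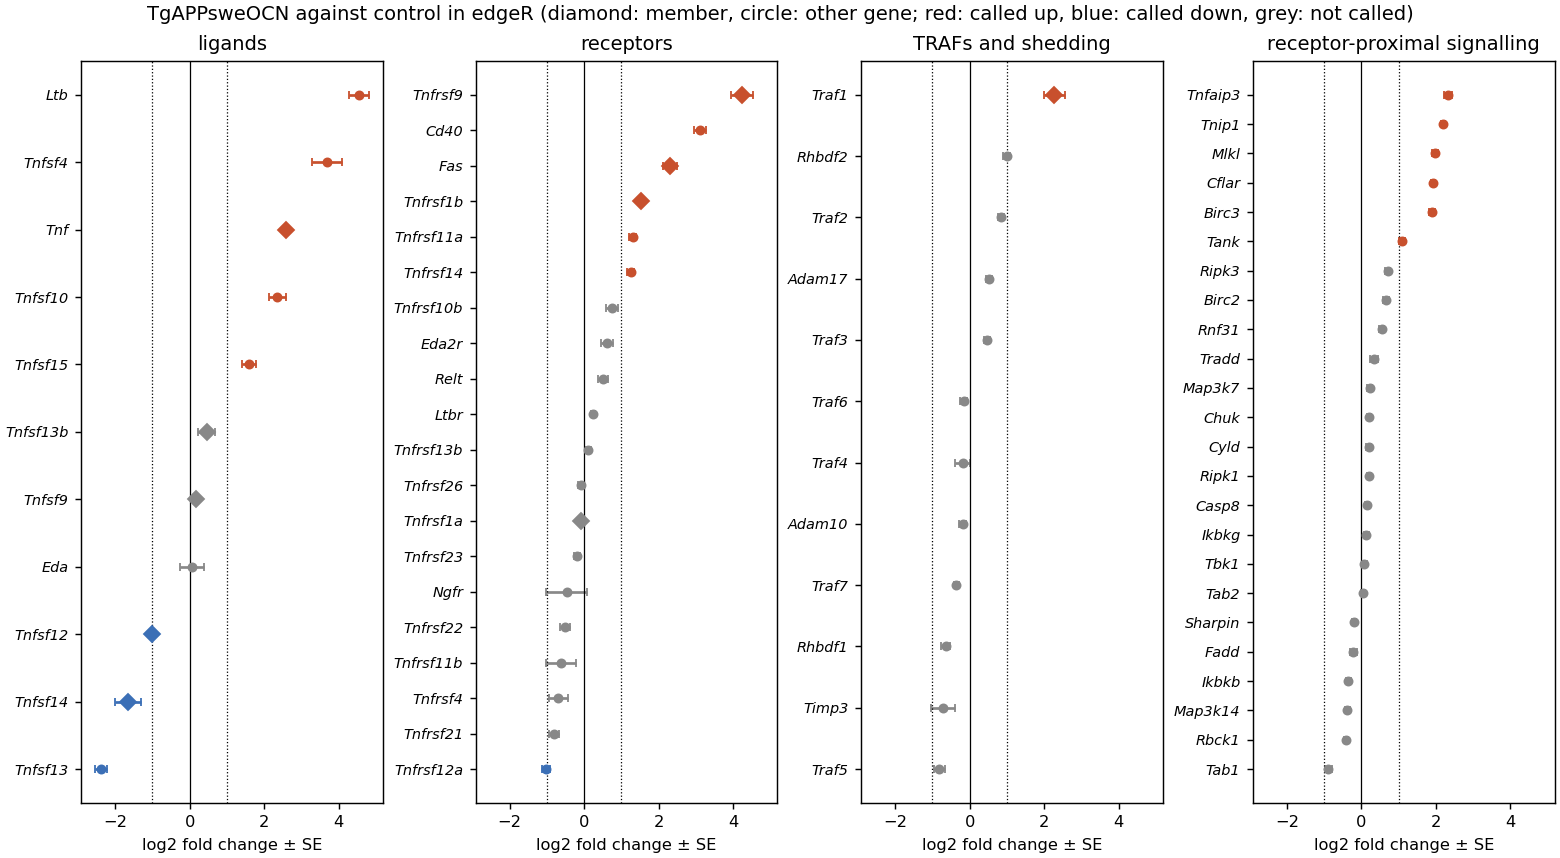
Log2 fold change ± SE in edgeR (TgAPPsweOCN against control) of every tested ligand, receptor, TRAF or shedding gene and receptor-proximal signalling gene, with diamonds for the 10 genes followed here, red for called up, blue for called down and dotted lines at the fold threshold. Ltb at 4.54 and Tnfrsf9 at 4.24 lay farthest to the right, and Tnfsf13 at -2.38 farthest to the left.

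Traf1 was the 1 TRAF gene called. Of the other 6 TRAF genes, all tested, edgeR called 0 in either direction, as did DESeq2, although 2 were higher and 2 lower both at an unadjusted and at an adjusted p of 0.05, close to the 32.5% and 31.5% of all tested genes at the adjusted p. Traf2 had a log2 fold change of 0.84 and Traf3 of 0.46, against -0.82 for Traf5 and -0.36 for Traf7. Traf4 and Traf6 did not pass the test.

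Genes that act next to the receptors were then counted. Of 24 such genes, all tested, 6 rose and 0 fell in edgeR and in DESeq2, beside 8.90% and 9.20% of all tested genes. With scaling by library size only 5 rose and 1 fell. By adjusted p alone 15 were higher, 5 lower and 4 did not pass, beside 32.5% higher and 31.5% lower over all tested genes, and the unadjusted p gave the same 15 and 5. Their median log2 fold change was 0.20. Those that rose include the NF-kappaB brakes Tnfaip3 at a log2 fold change of 2.32 and Tnip1 at 2.19, the ubiquitin ligase Birc3 at 1.89, the caspase-8 inhibitor Cflar at 1.93, the TRAF-binding Tank at 1.09 and the necroptosis effector Mlkl at 1.98. For example, Tnfaip3 went from CPM of 14.9, 17.9 and 18.6 in control to 93.2, 77.5 and 86.9 in TgAPPsweOCN (edgeR adjusted p = 4.09e-07). Ripk1, the kinase recruited to Tnfrsf1a, had a smaller value of 0.20 that passed the adjusted p alone (0.0106 in edgeR).

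Among 5 genes that shed Tnf or its receptors or control that step, edgeR called 0, with 2 higher and 1 lower at an unadjusted or adjusted p of 0.05, and DESeq2 called 1 up. By adjusted p 32.5% of all tested genes were higher and 31.5% lower. Adam17, the protease that releases Tnf, had a log2 fold change of 0.52 (edgeR adjusted p = 0.000423). Its partner Rhbdf2 was at 0.99, just under the fold threshold (edgeR adjusted p = 2.21e-05), and Rhbdf1 at -0.64. Adam10 and the inhibitor Timp3 did not pass the test.

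**Figure D4:**
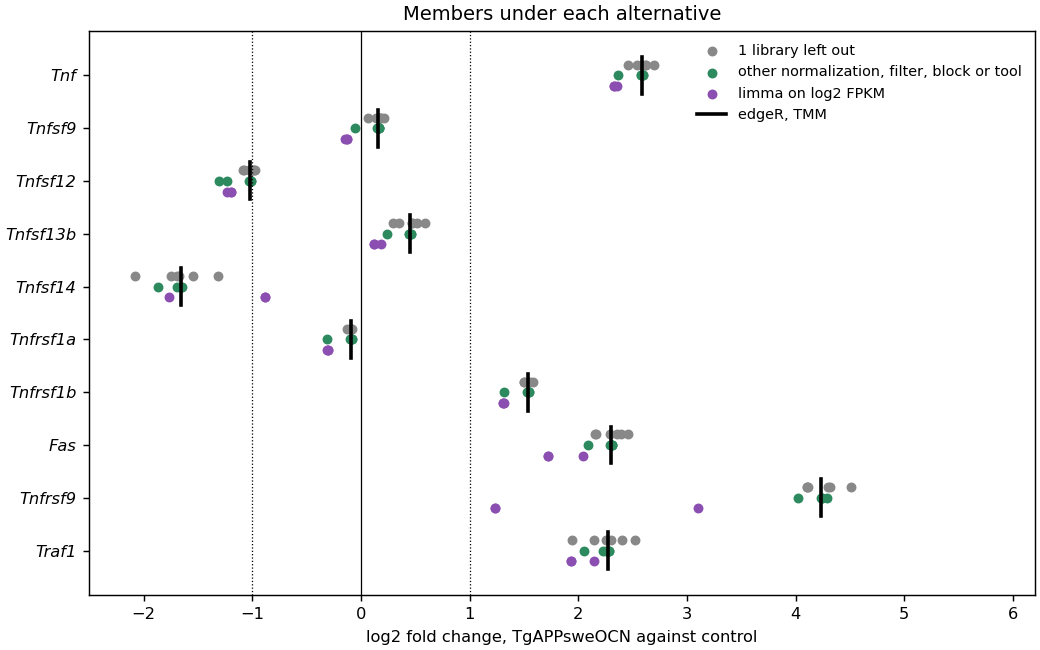
Log2 fold change of each of the 10 genes in edgeR with TMM (black line), with 1 library left out (grey), under other normalizations, filters, a block or DESeq2 and the summed Tnfsf12 counts (green), and in limma on log2 FPKM (purple), with dotted lines at the fold threshold. Tnf stayed between 2.33 and 2.70 and Tnfrsf1b between 1.31 and 1.58, while Tnfsf9 lay on both sides of 0 and Tnfrsf9 ranged from 1.24 to 4.51.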

How the data were processed

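RNA-seq of tdTomato+ cells from 3 Ocn-Cre;Ai9 and 3 TgAPPswe;Ocn-Cre;Ai9 libraries was analysed, grouped by the genotype in the sample labels. The authors sequenced on a DNBSEQ-G400, removed rRNA, adaptor and low-quality reads and mapped to mm10. Submitters' processing notes name HISAT2 2.0.4, Bowtie2 2.2.5, RSEM 1.2.12 and DESeq2 1.4.5. The authors deposited estimated counts per gene (13.3% to 14.4% of genes fractional per library) and FPKM values scaled by length and library. A further deposited table of the authors' own genotype comparison (ratios and p-values) was not used.

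Estimated counts were rounded and tested with edgeR 4.0.16 under R 4.3.3 (filterByExpr, TMM factors, quasi-likelihood test on genotype alone, Benjamini-Hochberg adjustment over 12701 genes). Intervals are 95%. A fold change on log2(FPKM + pseudocount) understates the change of low genes. Marker lists were described by summed FPKM. Scripts were first tested on simulated data in which 200 genes were changed. Differences between libraries of the same genotype were 2.46 to 5.86 times what sampling alone gives, so none was a copy. Alternatives were DESeq2 1.42.0, RLE factors, library size as the only scaling, no filter, at least 10 counts in every library, a replicate block, limma 3.58.1 on log2(FPKM + 1), with and without the filter, or log2(FPKM + 0.1), leaving out each library, and the summed Tnfsf12 locus, added after seeing the data. Tables and plots were made in Python 3.11.15 with pandas 2.3.3, numpy 2.4.6, scipy 1.17.1 and matplotlib 3.10.9.

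All 10 members are named. Of the lists of other ligands, receptors, TRAFs, proximal signalling and shedding genes, every called gene is named. Every ligand or receptor that was listed as the partner of a member is named too. Genes beyond that rule (Traf2, Traf3, Traf4, Traf5, Traf6, Traf7, Adam17, Adam10, Rhbdf1, Rhbdf2, Timp3, Ripk1, Cd79b, Eda and the markers) were named after their values were seen. The members and lists were chosen with earlier results of these data known, so their counts are descriptions.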

Additional observations from a re-analysis of the deposited data

How the results depend on the processing

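Of 396 recomputed values, 363 kept their direction and side of the call threshold or, for counts, stayed within 1.5 times. Tnf, Tnfrsf1b, Tnfrsf9, Fas and Traf1 were called up under every alternative that tested them, and Tnfrsf9 and Tnfsf14 were not tested under a minimum of 10 counts per library. Tnfsf9 changed sign with scaling by library size only (-0.054) and in limma (-0.132 on log2(FPKM + 1), with or without the filter, and -0.145 on log2(FPKM + 0.1)). Scaling by library size only moved the median of all genes from -0.02 to -0.23. Tnfsf14 fell short of the fold threshold in limma on log2(FPKM + 1), at -0.88 with and without the filter. With 1 library left out, Tnfsf12 ranged from -1.09 to -0.97, members called down from 1 to 2 (1 without control replicate 1, TgAPPsweOCN replicate 1 or 3), other receptors called down from 0 to 1 (0 without TgAPPsweOCN replicate 2), and shedding genes called up or down from 0 to 1 each (1 up without control replicate 1 or TgAPPsweOCN replicate 2, 1 down without TgAPPsweOCN replicate 1). Members called down were 1 under that minimum, which also left 1 lower by adjusted p, and 1 in limma on log2(FPKM + 1) with and without the filter. Other ligands called up were 2 under that minimum and 1 in limma on log2(FPKM + 1) with and without the filter. With scaling by library size only, 2 other receptors, 1 other TRAF and 1 proximal signalling gene were called down, and limma on log2(FPKM + 0.1) called 1 proximal signalling gene down. DESeq2 and RLE factors called 1 shedding gene up, and limma with the filter called 1 down with either pseudocount, but 0 on log2(FPKM + 1) without the filter. Genes called up over the whole table were 1130 in edgeR, 593 in limma on log2(FPKM + 1) and 589 without the filter. The causes of these shifts were not tested beyond what each setting changes by construction. The deviations of each library from its genotype mean, over tested genes, were correlated between the genotypes. Libraries that share a replicate number gave 0.0127, 0.00664 and 0.141, and those with unlike numbers gave -0.0522 to 0.0251. The value 0.141, of replicate 3, was the highest of all, so whether the numbers pair the libraries was not settled. With the replicate block 5 members were called up and 2 down, among 1115 genes up and 1147 down. At 11 counts in all control libraries, Tnfrsf9 is limited by depth.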
